A study of Mus musculus with 15 samples.

Results

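Riebeckite, an amphibole mineral, was given to mouse macrophages in its asbestiform habit of thin fibres and as cleavage fragments, the blocky to elongated pieces into which non-asbestiform riebeckite breaks, and gene expression after the 2 materials was compared. The comparison was chosen by treatment alone, and took 3 riebeckite asbestos and 3 riebeckite fragment libraries, 6 of the 15 libraries of the series. The cells were MPI cells, self-renewing, non-transformed macrophages named after the Max Planck Institute, obtained from the fetal liver of female C57BL6/J mice and kept in serum-containing medium with the growth factor GM-CSF, on which they depend. They were exposed for 24 h to 9 µg/cm2 of riebeckite asbestos or to 40 µg/cm2 of riebeckite cleavage fragments, doses with equal particle surface area but unequal mass. A further 3 libraries came from untreated MPI cells in the same medium, and were used to place each difference as more or less of the response that both particles shared. MPI cells are a cultured model of alveolar macrophages and were not taken from lung.

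Macrophages engulf mineral particles, and fibres too long to be enclosed are known to leave the cell with an unfinished phagosome, an oxidant burst and membrane damage. Activated macrophages translocate the transcription factor NF-kB to the nucleus, which drives cytokine genes such as Tnf and Il1b together with genes that switch NF-kB off again, among them its inhibitor Nfkbia. Itaconate made by the Acod1 enzyme and a shift to glycolysis are further parts of this activation, while resting alveolar macrophages, for which MPI cells serve as a model, handle surfactant lipid under the control of GM-CSF.

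Expression was given in FPKM (sequenced fragments scaled to transcript length and library total) for 10653 protein-coding genes, and 10616 with at least 0.5 FPKM in at least 3 of the 15 libraries were tested. Summed FPKM lay between 257329 and 273570 per library. The read depth is unknown, so no counting error could be attached to a level. Macrophage markers were abundant, with 15 entries summing to 7234 to 7611 FPKM after asbestos, 7578 to 8193 after fragments and 6444 to 6985 in untreated cells, while no mast cell or lymphocyte marker was among the genes tested. Of the other cell types, 5 dendritic cell markers summed to 265 to 274 FPKM after asbestos and 273 to 283 after fragments, the endothelial marker Vwf was at 19.1 to 20.03 and 22.1 to 23.5, and the hepatocyte marker Trf at 213 to 222 and 234 to 235. Markers of progenitors, erythroid cells, fibroblasts and epithelium numbered 1 or 2 each. The epithelial markers Cdh1 and Krt19 summed to 54.2 to 58.5 FPKM after asbestos, 55.1 to 56.8 after fragments and 64.5 to 64.9 in untreated cells. The progenitor markers Meis1 and Sox4 summed to at most 5.33 FPKM. The erythroid marker Epor did not exceed 6.46 FPKM, nor the fibroblast marker Acta2 2.22 FPKM. Whether replicate libraries were grown apart is not stated in the labels, so each p-value reflects variation among these libraries and possibly nothing beyond technical error. All differences are asbestos minus fragments on the log2(FPKM + 1) scale, which understates changes of low genes, and a gene was called when its limma p, adjusted by the Benjamini-Hochberg method over all 10616 genes, was under 0.05. In bulk RNA, a change in the share of cells of a type and a change in RNA per cell cannot be told apart.

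Riebeckite asbestos and riebeckite fragments left 1121 genes at different levels, 10.6% of those tested. Of these, 712 (6.71%) were higher after asbestos and 409 (3.85%) were lower. The spread was estimated from all 15 libraries, and a model of the 6 riebeckite libraries alone called 181 higher and 94 lower. The difference was mostly small: the median absolute difference of the called genes was 0.23, 48 were higher and 17 lower by at least 0.5, and 4 were higher and 0 lower by at least 1. Levels in the 3 asbestos libraries lay entirely outside those of the 3 fragment libraries for 29.0% of all genes tested (18.0% higher and 11.0% lower after asbestos) and for 1114 of the 1121 called genes. The excess of higher genes depended on scaling. As deposited, 63.5% of the called genes were higher after asbestos, but 46.0% were after TMM rescaling (485 higher and 569 lower) and 46.0% after quantile normalization (488 and 574). Rescaling to the nuclear genes left 64.5% higher (597 and 328). The median difference of all genes was 0.022 as deposited and -0.00095 after TMM rescaling. The number of calls also rested on single libraries, since 456 of the 1121 genes (282 higher, 174 lower) kept their call whichever of the 6 libraries was left out. Without asbestos library 1 there were 392 higher and 252 lower genes, without asbestos library 2 there were 452 and 277, without fragment library 2 394 and 271, and without fragment library 3 566 and 271.

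Acod1 and H2-M2 had the largest differences of the 712 genes called higher after asbestos. Acod1, the enzyme that makes itaconate from the citric acid cycle (ENSMUSG00000022126.6, chr14:103046977-103056573, GRCm38), was at 19.3, 23.04 and 18.1 FPKM in the 3 asbestos libraries, 5.77, 5.90 and 5.57 in the 3 fragment libraries and 0.671, 0.790 and 0.669 in untreated cells. All asbestos libraries lay above all fragment libraries, and those above all untreated ones. The difference between asbestos and fragments was 1.64 (SE 0.071, limma adjusted p = 1.05e-07). H2-M2, from the non-classical class I genes of the major histocompatibility complex (ENSMUSG00000016283.13, chr17:37480851-37483552), had the same order, at 47.8, 50.8 and 43.6 FPKM after asbestos, 17.0, 16.8 and 19.1 after fragments and 0.778, 0.7005 and 0.789 without particles. Its difference was 1.38 (SE 0.080, limma adjusted p = 1.81e-06). Slco4a1, an organic anion transporter, was at 10.3, 6.68 and 7.69 FPKM after asbestos against 2.94, 2.57 and 3.47, with the highest level in asbestos library 1 and no overlap (1.20, SE 0.13, limma adjusted p = 0.000143).

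Inhba, which encodes the subunit of activin A, a secreted TGF-beta family ligand, read 31.7, 33.1 and 33.0 FPKM after asbestos, 18.2, 17.0 and 17.4 after fragments and 2.09, 1.75 and 2.24 in untreated cells. Replicates of each group were close together, and the difference between asbestos and fragments was 0.86 (SE 0.084, limma adjusted p = 0.000114). Gpr84, a receptor for medium-chain fatty acids that is induced in activated macrophages, had a level of 12.7, 13.3 and 11.1 FPKM against 6.83, 6.47 and 6.47 (0.81, adjusted p = 0.000143). Slc6a12, a betaine and GABA transporter, was at 50.4, 40.6 and 40.1 FPKM against 26.5, 24.5 and 27.0 (0.72, adjusted p = 0.000226). For these 3 genes the fragment libraries were themselves far above the untreated ones, by 2.61, 1.68 and 2.06, so the difference was an enlargement of a rise that both particles gave.

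**Figure D1:**
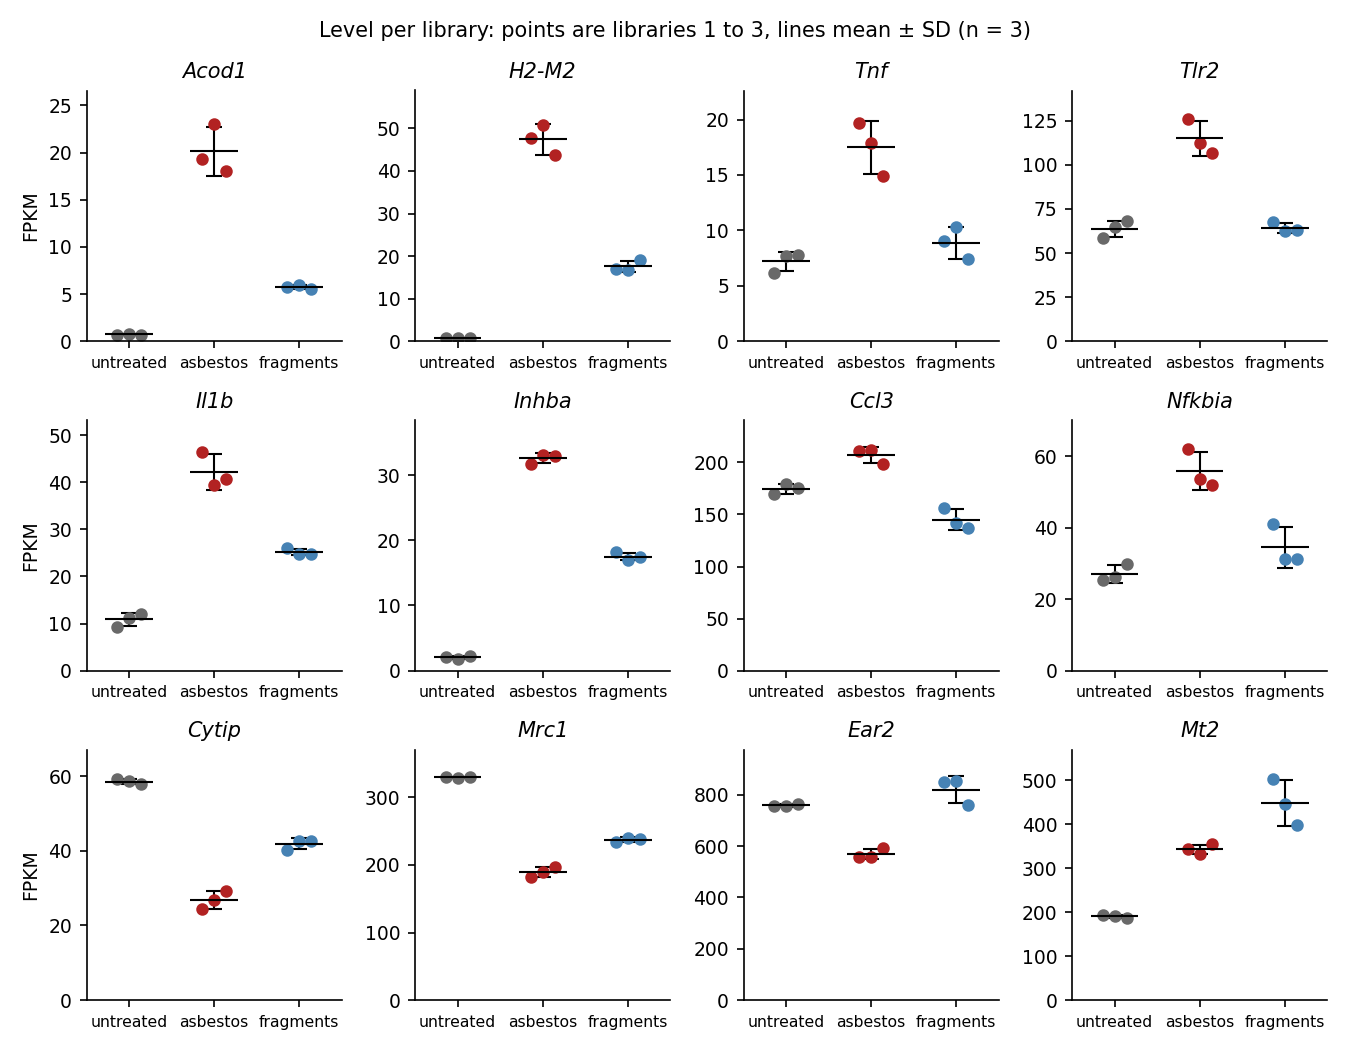
FPKM of 12 genes (1 panel each, linear axis) in the 3 untreated, 3 riebeckite fragment and 3 riebeckite asbestos libraries; points are libraries, and bars give the mean ± SD (n = 3). The 12 genes were picked from those called, so the lack of overlap between asbestos and fragment points in each panel follows from the choice. Of the 1121 called genes 1114 had no overlap, against 29.0% of all genes tested. Acod1 runs from 0.710 FPKM in untreated cells through 5.75 after fragments to 20.1 after asbestos, while Mrc1 runs downward.

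Of the NF-kB subunits and feedback genes, 17 of 25 tested members were higher after asbestos and 0 were lower, against 6.71% and 3.85% of all genes. These shares of all genes are the background for every list count that follows. The median of the list was 0.29, against 0.02 for all genes, and 24 of 25 members were above 0. Leaving out 1 library left 12 to 16 higher members, and 11 kept their call in all 6 omissions. The inhibitors led. Nfkbia, which encodes IkB-alpha, was at 61.9, 53.6 and 51.9 FPKM after asbestos, 41.2, 31.1 and 31.2 after fragments and 25.3, 26.2 and 29.97 in untreated cells. The lowest asbestos library was above the highest fragment library, and fragment library 1 stood above the other 2 (0.69, SE 0.10, limma adjusted p = 0.00140). Nfkbie, encoding IkB-epsilon, read 16.3, 17.2 and 15.1 FPKM against 10.5, 10.3 and 9.61 (0.63, adjusted p = 0.000241).

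Subunits of NF-kB itself had smaller differences. Nfkb2 was at 28.5, 28.1 and 26.3 FPKM after asbestos and 20.97, 19.3 and 19.9 after fragments, without overlap (0.44, adjusted p = 0.000143). Rela differed by 0.24 (adjusted p = 0.00824). Relb (0.38) kept its call only without asbestos library 2, and Nfkb1 (0.22) lost it without asbestos library 1 or fragment library 3 (adjusted p up to 0.0599). Rel, with a difference of 0.01 (adjusted p = 0.930), was not called. Targets of the pathway included Icam1, the adhesion molecule that binds leukocyte integrins (32.2, 29.3 and 27.1 against 22.3, 20.9 and 20.7 FPKM, 0.45), and Sod2, the mitochondrial superoxide dismutase (50.3, 46.9 and 45.8 against 36.8, 35.8 and 33.7 FPKM, 0.42). Asbestos and fragment libraries did not overlap for either gene. Further stable calls were those of Tnip1 (0.37), the caspase 8 inhibitor Cflar (0.33) and the RNase gene Zc3h12a (0.25). Bcl3 (0.57) and the apoptosis inhibitor Birc3 (0.33) lost their calls without asbestos libraries 1 or 2 or fragment library 3, and Bcl3 also without fragment library 2 (adjusted p up to 0.0709 and 0.0830). Tnfaip3, the ubiquitin-editing enzyme A20, was not called (0.54, 95% interval 0.11 to 0.97, adjusted p = 0.108).

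**Figure D2:**
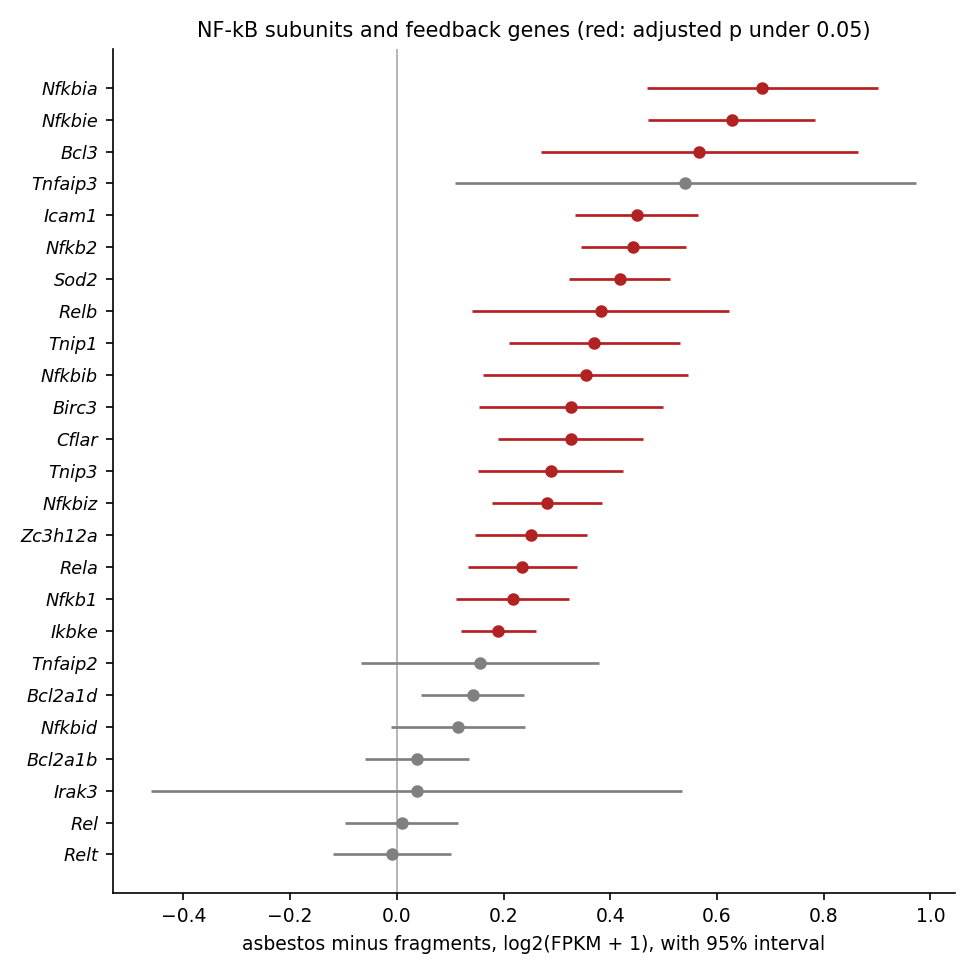
Difference between riebeckite asbestos and riebeckite fragments (log2(FPKM + 1) scale) of the 25 NF-kB genes tested, with the 95% interval of the limma fit; the 17 called genes are in red. Of the 25 points 24 lie right of 0, led by Nfkbia (0.69) and Nfkbie (0.63).

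Promoter sequence was examined for the NF-kB consensus because so many of these genes differed together. Start sites were matched by symbol to RefSeq promoters of the GRCm38.p6 build, and the 250 bases before the start were searched on both strands for the 10-base NF-kB consensus, allowing overlapping matches. A match was present for 10 of 22 NF-kB genes with a promoter (45.5%), against 846 of 8373 tested genes (10.1%), 82 of 572 genes called higher after asbestos (14.3%) and 27 of 309 called lower (8.74%). Among the 22, a match was found in 6 of the 14 called genes and in 4 of the 8 others. For comparison, the AP-1 motif TGANTCA was in 5.24% of all promoters, 5.42% of those of higher genes and 6.47% of those of lower genes. Windows are printed for 6 genes called higher after asbestos that hold a match, which is a description of the letters and not evidence of a bound factor. Genes with a match that are not printed included Nfkb2, Sod2, Tnip1 and Tnip3, all higher, and AI987944, which was lower. Nlrp3, Tgfb1, Rel and Tnfaip3 were among the genes that were not called and held a match too. Each printed window runs 5′ to 3′ along the strand of its gene, with the matches in capitals. The windows are Nfkbia at chr12:55492648-55492696 (minus strand), Nfkbie at chr17:45555574-45555623 (plus), Tlr2 at chr3:83841751-83841801 (minus), H2-M2 at chr17:37483671-37483754 (minus), Slc6a12 at chr6:121342421-121342470 (plus) and Cxcl2 at chr5:90903782-90903832 (plus).
Nfkbia: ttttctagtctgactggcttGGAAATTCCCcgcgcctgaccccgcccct
Nfkbie: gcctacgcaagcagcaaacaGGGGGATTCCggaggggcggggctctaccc
Tlr2: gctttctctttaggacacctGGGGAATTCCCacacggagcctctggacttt
H2-M2: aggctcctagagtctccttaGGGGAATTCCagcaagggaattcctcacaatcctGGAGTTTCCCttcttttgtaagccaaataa
Slc6a12: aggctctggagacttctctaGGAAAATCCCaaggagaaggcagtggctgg
Cxcl2: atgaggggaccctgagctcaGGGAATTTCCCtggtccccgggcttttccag
Of the 15 largest higher genes, 12 had a promoter and 4 a match, the 4 being H2-M2, Slc6a12, Tlr2 and Nfkbia. Of the 15 largest lower genes, 12 had a promoter and 1 a match.

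Inflammatory cytokines and chemokines were higher after asbestos in 8 of 21 cases and lower in 2, with a median of 0.25. Without asbestos library 1 the number higher was 5. Tnf, a master cytokine of acute inflammation, was at 19.7, 17.9 and 14.9 FPKM after asbestos, 9.005, 10.3 and 7.38 after fragments and 6.19, 7.64 and 7.79 in untreated cells. Every asbestos library was above every other one, and the fragment and untreated libraries overlapped. The difference between asbestos and fragments was 0.90 (SE 0.12, limma adjusted p = 0.000645), and fragments against untreated cells gave 0.26 (adjusted p = 0.0981). Il1b, the inflammasome-processed interleukin, was at 46.5, 39.3 and 40.8 FPKM after asbestos, 26.0, 24.8 and 24.8 after fragments and 9.37, 11.1 and 12.1 in untreated cells (0.72 between particles, adjusted p = 0.000373). Il1a, an alarmin released by damaged cells, was at 140.2, 134 and 132 against 115, 109 and 105 FPKM (0.30, adjusted p = 0.00119). The groups did not overlap for either interleukin gene.

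Chemokines differed in unlike ways. Ccl3, which draws monocytes and neutrophils, was at 211, 212 and 198 FPKM after asbestos, 157, 142 and 137 after fragments and 169, 179 and 176 in untreated cells. The untreated libraries lay between the other groups, so Ccl3 was raised by asbestos (0.25, limma adjusted p = 0.00254) and lowered by fragments (-0.27, adjusted p = 0.00165). Cxcl2, a neutrophil chemoattractant, read 5.51, 4.20 and 2.98 against 2.72, 2.64 and 2.02 FPKM and was called (0.57, adjusted p = 0.0232), but not without asbestos libraries 1 or 2 or fragment library 3 (adjusted p up to 0.0801). Ccl2, a monocyte chemoattractant, was at 1.24, 1.94 and 0.341 FPKM after asbestos and 1.01, 0.476 and 0.436 after fragments, with overlap (0.35, adjusted p = 0.391). The lower members were Il18, at 38.1, 43.9 and 41.6 FPKM after asbestos, 51.7, 51.4 and 51.2 after fragments and 98.1, 103 and 103 without particles (-0.32), and Ccl9 (-0.20), which lost its call without asbestos libraries 2 or 3 or fragment libraries 1 or 2 (adjusted p up to 0.0667). Both particles lowered Il18, and asbestos lowered it further. Il6 and Il10 were not among the genes tested.

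Receptors for cytokines were split. Of 29 cytokine and chemokine receptors, 7 were higher and 4 lower after asbestos, with a median of 0.02, the same as for all genes. Il7r, the interleukin 7 receptor chain, went from 0.797, 0.647 and 0.651 FPKM in untreated cells to 3.40, 3.27 and 3.75 after fragments and 5.26, 6.44 and 6.11 after asbestos (0.63 between particles, limma adjusted p = 0.00211). Csf2rb, the signalling chain of the GM-CSF receptor on which MPI cells depend, was at 295, 287 and 293 FPKM against 246, 240.1 and 246 and 131, 128 and 131 in untreated cells (0.26). Csf1r, the receptor for the macrophage growth factor M-CSF, was at 95.1, 91.7 and 86.8 FPKM after asbestos, while the fragment libraries (73.6, 73.2 and 74.7) and untreated libraries (71.1, 72.5 and 74.4) shared a range (0.30, adjusted p = 0.000169). Ccrl2 (0.54), the interferon receptor chains Ifngr2 (0.23) and Ifnar1 (0.23), and Csf2rb2 (0.22) completed the higher group, and all 7 kept their call in the 6 omissions. The chemokine receptor gene Cxcr2 had a level of 12.4, 14.01 and 13.998 FPKM after asbestos, 16.4, 20.2 and 20.4 after fragments and 2.45, 2.61 and 2.46 in untreated cells, so fragments gave the larger rise (-0.46, adjusted p = 0.0141). Its call ended without asbestos library 1 or fragment libraries 2 or 3 (adjusted p up to 0.0588).

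Of 19 TNF receptors and adaptors, 6 were higher after asbestos and 0 lower (median 0.10). Tnfrsf12a, the receptor of TWEAK, was at 24.9, 21.3 and 21.6 FPKM against 15.8, 11.6 and 16.8, and Ltbr, the lymphotoxin beta receptor, at 35.1, 34.3 and 34.3 against 28.1, 28.2 and 28.05. Their differences were 0.60 (adjusted p = 0.00980) and 0.29 (adjusted p = 0.00166), with no overlap between groups. Tnfrsf9, the costimulatory receptor CD137, differed by 0.59 (adjusted p = 0.0367) and kept its call only without fragment library 1 (up to 0.134 otherwise).

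Receptors for microbial and damage signals divided evenly, with 4 of 28 higher and 4 lower and a median of -0.06. Tlr2, the Toll-like receptor for lipoproteins (ENSMUSG00000027995.10, chr3:83836272-83841767), was at 126, 113 and 107 FPKM after asbestos, 67.4, 62.4 and 63.1 after fragments and 58.7, 64.5 and 68.0 in untreated cells. Fragment and untreated libraries shared a range (0.01, adjusted p = 0.871), and asbestos stood 0.83 above fragments (SE 0.060, limma adjusted p = 1.77e-05). Clec4e, the lectin Mincle that senses damaged cells, was at 8.42, 8.20 and 7.53 FPKM against 4.07, 4.20 and 3.34 (0.90, adjusted p = 0.000225), and Cd14, a co-receptor of Toll-like receptors, at 35.4, 26.3 and 25.4 against 20.2, 17.9 and 18.0 (0.59, adjusted p = 0.00245). Asbestos library 1 gave the highest Tlr2, Clec4e and Cd14 level of its group. The lower members were the lectin gene Clec4a3 (5.99 ± 0.157 FPKM after asbestos, 8.67 ± 0.217 after fragments, SD, n = 3, -0.47), the dendritic cell lectin Clec9a (-0.33) and Tlr13, a receptor for bacterial ribosomal RNA (-0.20). Clec1b (-0.20), the fourth, kept its call only without fragment library 1 (adjusted p up to 0.0939 otherwise).

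Complement genes were lower after asbestos in 4 of 13 entries and higher in 1. The median was -0.13, but 0.15 without asbestos library 2, 0.13 without fragment library 2, 0.09 without fragment library 3 and 0.05 after quantile normalization. The 1 higher gene, Cfb, encodes factor B of the alternative pathway and was at 131, 131 and 107 FPKM after asbestos, 70.2, 82.2 and 72.0 after fragments and 9.67, 11.3 and 11.3 in untreated cells (0.71, adjusted p = 0.000463). It overlaps the gene model Gm20547 on the same strand, so reads of these genes cannot be told apart. Properdin, the stabiliser of the same pathway, encoded by Cfp, was at 76.1, 75.6 and 71.0 FPKM against 98.7, 89.4 and 85.4 and 151, 148 and 145 in untreated cells (-0.29), a larger fall after asbestos. The integrin chain genes Itgax (55.9, 56.5 and 58.5 against 68.4, 66.8 and 69.7 FPKM, -0.26) and Itgb2 (-0.13) rose with both particles and rose more after fragments. The direction of the Itgb2 difference was not stable, since quantile normalization turned it to 0.05.

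In the inflammasome list, 6 of 18 genes were lower after asbestos and 1, Il1b, was higher (median -0.05), and 3 were lower without asbestos library 2 or fragment library 2. Txnip, a thioredoxin-binding protein, was at 57.5, 61.7 and 60.4 FPKM after asbestos, 88.3, 82.9 and 84.5 after fragments and 107, 97.1 and 113 in untreated cells, with all asbestos libraries under all others (-0.50, SE 0.059, limma adjusted p = 0.000278). The flagellin sensor gene Naip6 (-0.20) was lower in all omissions as well. Nlrp1a (-0.32) lost its call without asbestos libraries 2 or 3 or fragment library 2, Naip5 (-0.15) without asbestos libraries 1 or 2 or fragment libraries 2 or 3, and Nlrp1b (-0.24) without any library but asbestos library 3. Naip5 and Naip6 are near-identical copies whose reads can be split uncertainly. Nlrp3, the sensor for membrane damage by crystals and fibres, was at 7.32, 7.20 and 7.94 FPKM after asbestos and 6.61, 5.41 and 6.49 after fragments and was not called (0.25, 95% interval -0.02 to 0.52, adjusted p = 0.241).

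Of 23 MHC class I and peptide loading genes, 4 were higher after asbestos and 0 lower (median 0.11). Without asbestos library 3, 7 were higher, and 2 were higher without asbestos libraries 1 or 2 or fragment libraries 1 or 3. The median was 0.01 without asbestos library 2 and 0.04 without fragment library 1. Besides H2-M2, the classical heavy chain H2-K1 was at 157, 159.7 and 139.6 FPKM against 129, 131 and 116 (0.28, adjusted p = 0.00719). The tapasin genes Tapbp (0.29) and Tapbpl (0.27) were called too, but Tapbp lost the call without asbestos libraries 1 or 2 or fragment libraries 1 or 3 (adjusted p up to 0.169), and Tapbpl without any library but asbestos library 3 (up to 0.107). In the class II and costimulation list 2 of 11 were lower and 1 higher. H2-DMa, which loads peptides on class II molecules, was at 18.1, 17.1 and 19.0 FPKM after asbestos, 22.5, 22.7 and 21.8 after fragments and 45.3, 44.5 and 43.7 in untreated cells (-0.29, adjusted p = 0.000706). Cd274, the checkpoint ligand PD-L1, was at 94.0, 101 and 95.7 against 113, 117 and 113 FPKM (-0.24), again the larger fall after asbestos. The ligand gene Icosl was called (0.21) but lost the call without asbestos libraries 1 or 3 or fragment libraries 2 or 3 (adjusted p up to 0.118).

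Interferon-stimulated genes varied more within groups than between them. None of 30 was called by limma, and 0 had an unadjusted p under 0.05, against 2714 of all 10616 genes tested. The list median was 0.28 with 28 of 30 above 0, but it was -0.03 without asbestos library 2, 0.06 without fragment library 3, 0.12 without fragment library 1, 0.55 without fragment library 2 and 0.58 without asbestos library 3. Bst2, an antiviral membrane protein, was at 172, 186 and 106 FPKM after asbestos and 110.1, 147 and 95.7 after fragments, and Rsad2, the antiviral enzyme viperin, at 3.91, 12.2 and 1.37 and 0.819, 5.74 and 1.11. In both groups library 2 was the highest for these genes. Over the whole list the median log2 level was 3.26, 4.01 and 2.56 in asbestos libraries 1, 2 and 3, 2.63, 3.86 and 2.47 in fragment libraries 1, 2 and 3, and 3.43 to 3.55 in untreated libraries. The part of this spread in other differences was not tested.

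**Figure D3:**
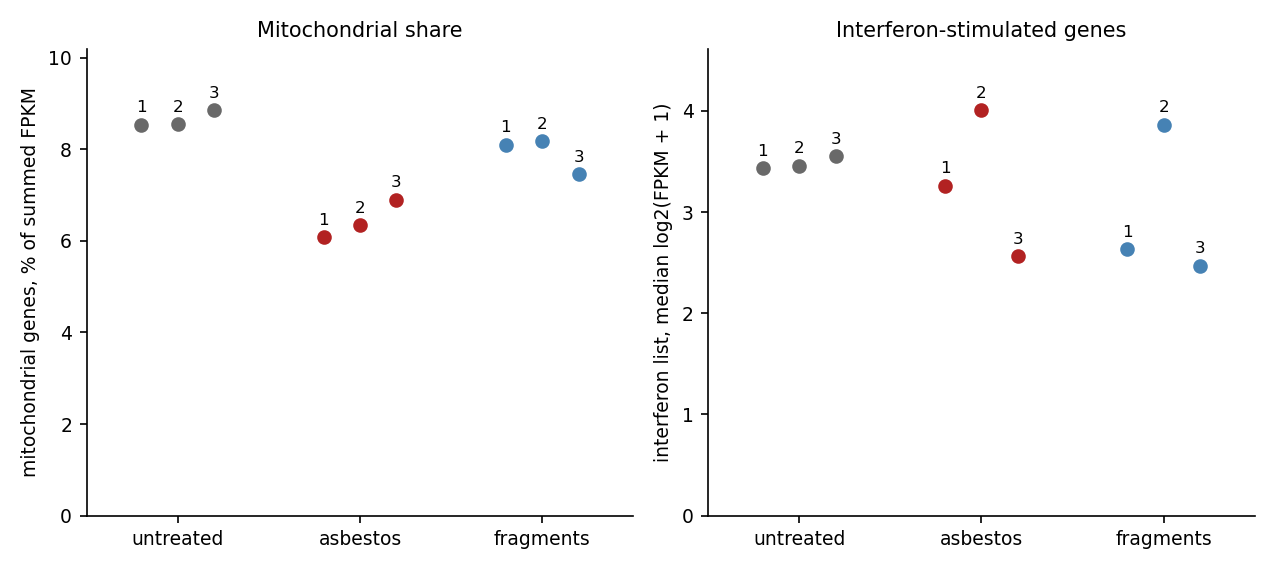
Share of summed FPKM on mitochondrially encoded genes (left, %) and median log2(FPKM + 1) of 30 interferon-stimulated genes (right) in each untreated, riebeckite fragment and riebeckite asbestos library. The mitochondrial shares of asbestos (mean 6.44%) and fragment libraries (7.91%) do not overlap, whereas the interferon medians do, with library 2 the highest in both particle groups (4.01 and 3.86).

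**Figure D4:**
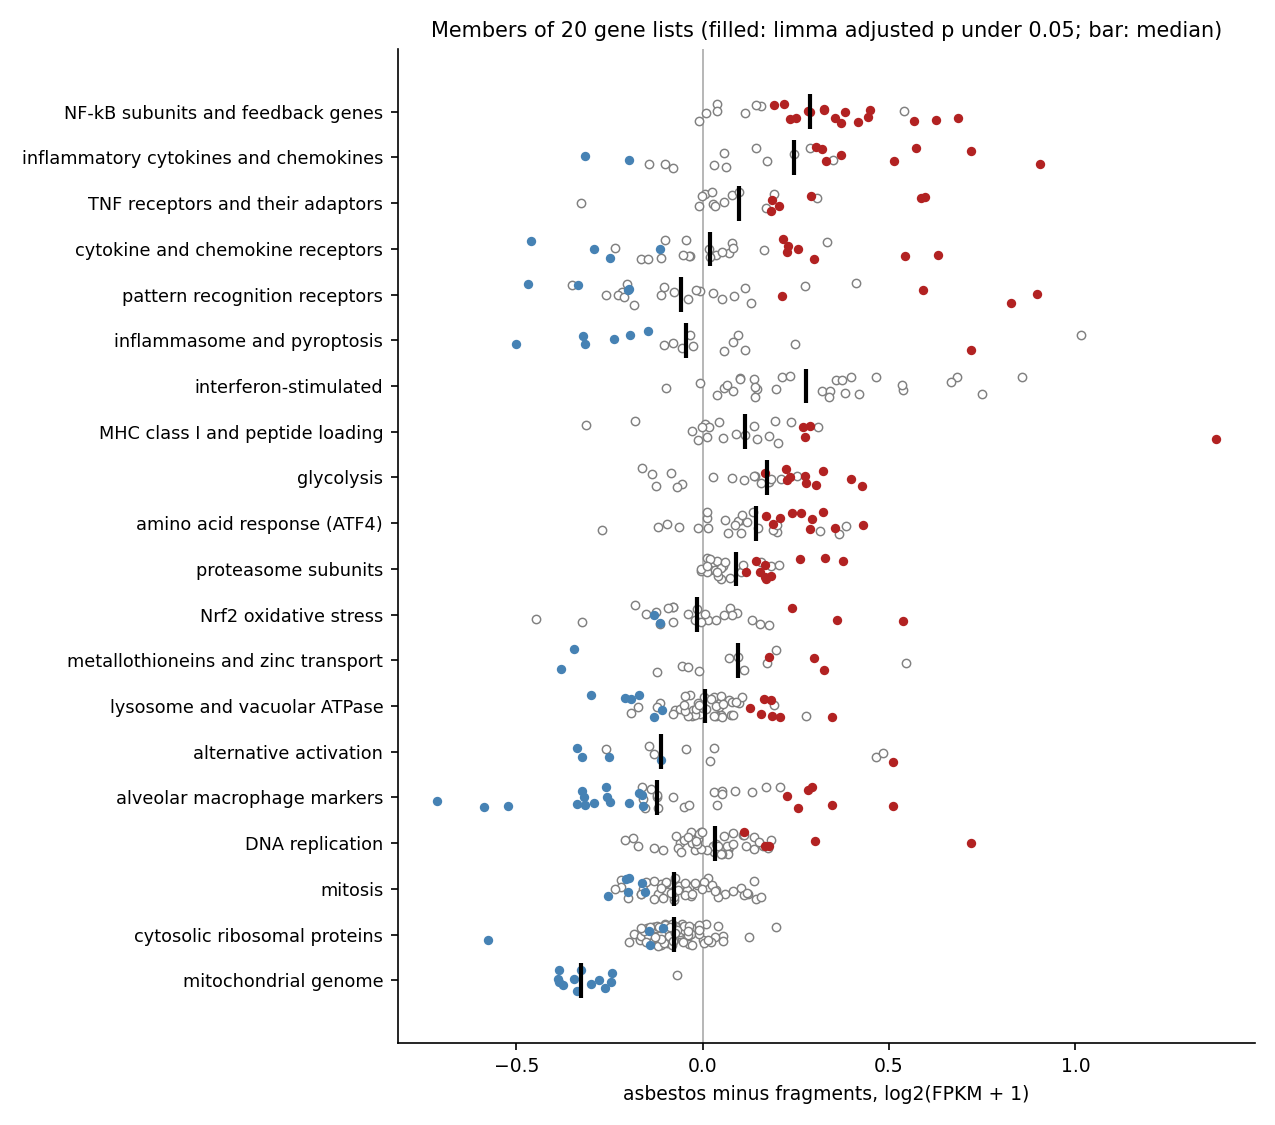
Differences between riebeckite asbestos and riebeckite fragments (log2(FPKM + 1) scale) of the members of 20 gene lists; each point is a gene, filled where it was called, and the bar is the list median. The NF-kB list lies almost wholly above 0 (median 0.29) and the mitochondrial genome wholly below (-0.33).

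Of 22 genes of immune metabolism, Acod1 among them, 4 were higher after asbestos and 4 lower (median -0.07). Gch1, the first enzyme of tetrahydrobiopterin synthesis, was at 13.0, 13.5 and 12.7 FPKM against 8.75, 9.93 and 8.68 (0.48, adjusted p = 0.000148), and Ptger4, a prostaglandin E2 receptor, at 8.90, 8.62 and 8.72 against 6.25, 6.35 and 6.31 (0.42, adjusted p = 0.000114). Every particle-treated library was above every untreated one for both genes. Ass1 (0.17), argininosuccinate synthase, lost its call without asbestos libraries 1 or 2 or fragment libraries 2 or 3 (adjusted p up to 0.140). The lower genes belonged to eicosanoid and tryptophan metabolism: thromboxane synthase Tbxas1 (16.8, 18.0 and 18.7 against 23.1, 22.02 and 22.5 FPKM, -0.32), the leukotriene enzyme Alox5 (-0.27), the cyclooxygenase Ptgs1 (-0.11) and kynureninase Kynu (-0.15). Kynu lost its call without asbestos libraries 1 or 3 or fragment libraries 2 or 3, and Ptgs1 kept it only without fragment library 1. Tbxas1 after fragments overlapped with untreated cells (22.9, 22.97 and 21.99 FPKM, adjusted p = 0.947).

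Glycolysis genes were higher after asbestos in 10 of 26 cases and lower in 0, with a median of 0.17. This count fell to 4 without asbestos library 2, 5 without fragment library 2, 6 without fragment library 1 and 3 with summed transcripts. In all 6 omissions 2 of the 10 kept their call. These were Hk2, hexokinase 2, at 29.2, 30.2 and 28.3 FPKM against 22.4, 21.7 and 21.8 and 16.1, 17.2 and 17.1 in untreated cells (0.40, adjusted p = 0.000143), and Ldha, lactate dehydrogenase A, at 122, 118 and 119 against 96.1, 99.0 and 101 (0.27, adjusted p = 0.00302). The lactate exporter Slc16a3 (0.31) lost its call without asbestos library 2 (adjusted p = 0.0539), and pyruvate kinase Pkm (0.22) without fragment library 3 (adjusted p = 0.0525). The glucose transporter Slc2a1 (0.32) and phosphofructokinase Pfkl (0.28) lost theirs without asbestos library 2 or fragment libraries 1 or 2, Slc2a1 also without asbestos library 3 and Pfkl without asbestos library 1. Slc2a6, a lysosomal hexose transporter, was lowered by both particles, to 6.504, 5.93 and 5.89 FPKM by asbestos and 4.98, 3.51 and 4.47 by fragments (0.43), and lost its call without asbestos library 1 (adjusted p = 0.0542).

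Genes of the amino acid response driven by ATF4 were higher after asbestos in 10 of 34 cases and lower in 0 (median 0.14), and in 7 to 11 when 1 library was left out. For several of them the fragment libraries lay under the untreated ones. Slc38a2, a neutral amino acid importer, was at 42.4, 36.5 and 36.8 FPKM after asbestos, 27.4, 28.5 and 29.2 after fragments and 32.0, 33.5 and 32.9 in untreated cells. Asbestos raised it (0.23) and fragments lowered it (-0.20), and the difference between them was 0.43 (limma adjusted p = 0.000518). Shmt2, which feeds mitochondrial one-carbon metabolism, was at 13.4, 12.6 and 11.9 FPKM after asbestos, overlapping with the untreated libraries (12.9, 13.3 and 12.2), and at 9.42, 9.66 and 9.96 after fragments (0.35, adjusted p = 0.00232). The alanyl-tRNA synthetase gene Aars (0.32) and its asparaginyl counterpart Nars (0.17) were higher as well. Aars shares its strand with Exosc6, which it overlaps. Atf4 itself (0.21) lost its call without asbestos library 1 or fragment libraries 2 or 3 (adjusted p up to 0.0776), and Atf3 (0.26) without asbestos library 2 (adjusted p = 0.0647). Slc7a11, the cystine importer, was called (0.24), but not without asbestos library 1 or fragment libraries 1 or 2 (adjusted p up to 0.0727). The stress cytokine gene Gdf15 was at 8.70, 6.94 and 7.53 against 6.93, 5.27 and 5.18 FPKM without overlap and was not called (0.37, adjusted p = 0.0896).

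Proteasome subunits were higher in 10 of 32 cases and lower in 0, with a median of 0.09 and 30 of 32 above 0. Examples were the catalytic subunit Psmb6 (116, 116 and 115 against 103, 95.7 and 90.5 FPKM, 0.26, adjusted p = 0.00504) and the regulatory subunit Psmd2 (0.17, adjusted p = 0.00435). The count fell to 5 without fragment library 2, to 6 without asbestos library 2 or asbestos library 3, to 6 after TMM rescaling or quantile normalization, and to 3 with summed transcripts.

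Of 29 Nrf2 genes of oxidant defence, 3 were higher and 2 lower after asbestos, beside 6.71% and 3.85% of all genes tested, and the median was -0.02. Hmox1, which degrades heme and is a standard Nrf2 target, was at 212, 195 and 201 FPKM after asbestos, 190.2, 176 and 181 after fragments and 88.6, 84.2 and 82.0 in untreated cells. Both particles raised it, and the difference between them was not called (0.15, 95% interval 0.05 to 0.26, adjusted p = 0.0664). The small Maf protein gene Maff (23.2, 22.5 and 22.1 against 15.8, 14.6 and 15.4 FPKM, 0.54) and the autophagy receptor gene Sqstm1 (0.36) were the stable higher members. Glutathione reductase Gsr (-0.13) lost its call without fragment libraries 1 or 2 (adjusted p up to 0.0519), and catalase Cat (-0.12) without asbestos libraries 2 or 3 or fragment libraries 1 or 3 (up to 0.0697). Gclm, a glutathione synthesis subunit, had overlapping groups (-0.08, adjusted p = 0.860), and Nqo1 was not among the genes tested.

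The metallothioneins were higher after fragments. Mt2, which binds zinc and other metals, was at 343, 333 and 354 FPKM after asbestos, 503, 445 and 399 after fragments and 195, 191 and 188 in untreated cells, and Mt1 at 251, 255 and 273, 360.4, 339 and 295 and 169, 161 and 162. Both particles raised both genes, and every fragment library was above every asbestos library (-0.38 and -0.35, limma adjusted p = 0.00626 for Mt2 and 0.00626 for Mt1). Among the other 13 zinc genes, the zinc transporter genes Slc39a10 (0.33) and Slc39a7 (0.30) were higher after asbestos, and Slc39a6 (0.18) lost its call without asbestos libraries 1 or 2 or fragment libraries 1 or 2. Of 27 iron and heme genes, 6 were higher and 2 lower. Hp, haptoglobin, which captures free haemoglobin, was at 35.4 ± 7.19 FPKM after asbestos and 21.9 ± 0.411 after fragments (SD, n = 3, 0.65, adjusted p = 0.00611). Slc11a1, the phagosomal metal exporter, was at 8.30, 8.65 and 7.11 against 5.28, 5.25 and 4.77 FPKM (0.56), and Slc25a37, the mitochondrial iron importer, at 22.5, 19.1 and 19.0 against 15.3, 12.7 and 13.6 (0.51). Summing the deposited transcripts of these 2 genes turned the direction, to -0.23 and -0.15. Slc40a1, ferroportin, the cellular iron exporter, was lowest after asbestos (0.976, 0.958 and 0.999 FPKM, against 1.51, 1.51 and 1.76 after fragments and 2.56, 2.59 and 2.72 in untreated cells, -0.39).

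Of 19 BCL2 family genes none was called by limma, and 3 had an unadjusted p under 0.05, against 2714 of all 10616 genes tested. The nearest to a call, the survival gene Bcl2a1d, had a difference of 0.14 (adjusted p = 0.0597). Of 30 p53 targets 3 were lower (1 without asbestos library 1) and 1 higher (3 without fragment library 1 and 0 in the other omissions). Trp53inp1, a proapoptotic p53 target, was at 11.3, 12.7 and 12.4 FPKM after asbestos, 13.97, 15.5 and 15.4 after fragments and 13.4, 13.3 and 14.1 in untreated cells (-0.28, adjusted p = 0.00316). Cdkn1a, the cell cycle inhibitor p21, was called at -0.15, and kept the call only without asbestos library 2 (adjusted p up to 0.130 otherwise). Of 27 heat shock genes 3 were higher and 1 lower, with the co-chaperone Bag3 (26.1, 24.4 and 25.7 against 20.5, 20.6 and 20.1 FPKM, 0.30) and the chaperonin Cct3 (0.21) stable. Of 24 unfolded protein response genes 1 was called, Xbp1 (-0.13), which kept the call only without asbestos library 3.

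Immediate early transcription factors were higher after asbestos in 6 of 26 cases and lower in 2 (median 0.15), and lower in 1 in each of the 6 omissions. Junb, an AP-1 subunit, was at 27.0, 24.95 and 22.4 FPKM after asbestos, 18.0, 14.5 and 15.7 after fragments and 16.1, 16.0 and 18.5 in untreated cells (0.60, adjusted p = 0.00112). Jun was lowered by both particles, to 14.6, 14.9 and 13.5 FPKM by asbestos and 10.04, 10.6 and 10.6 by fragments, from 17.1, 17.3 and 17.5 (0.43, adjusted p = 0.000416). For Jun the asbestos libraries were therefore nearer to untreated cells. The stress-induced gene Ier3 differed by 0.56, and Dusp5, a phosphatase of ERK, was lower after asbestos (20.5, 19.4 and 20.7 against 27.1, 24.8 and 27.6 FPKM, -0.37).

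Lipid and lysosome lists held members of both directions. Abca1, the cholesterol efflux pump, was at 37.4, 32.5 and 32.3 FPKM after asbestos, 27.6, 27.7 and 27.5 after fragments and 11.3, 12.1 and 12.3 in untreated cells (0.29, adjusted p = 0.00356), and was the 1 higher gene of 21 LXR and efflux genes. Lipa, the lysosomal acid lipase, was lower (489, 486 and 497 against 575, 554 and 553 FPKM, -0.19, adjusted p = 0.00619), while Fabp4 (-0.26) and Lpl (-0.16) lost their calls without asbestos libraries 1 or 3 or fragment library 1. Acat2 (0.27), a thiolase of sterol synthesis, was the 1 gene called of 25 in cholesterol synthesis and uptake. Of 25 fatty acid synthesis genes 2 were higher and 3 lower, and of 26 oxidation genes 1 and 4. The number of lower oxidation genes was 0 to 2 without any library but fragment library 2. None of the 5 synthesis genes kept its call in all 6 omissions. Of the oxidation genes, Acaa1a, a peroxisomal thiolase, kept its call in all 6 omissions (32.1, 31.0 and 28.9 against 27.2, 23.9 and 26.1 FPKM, 0.25). In the lysosome list 7 of 56 were higher (4 without asbestos library 1 or fragment library 3) and 6 lower (3 without asbestos libraries 2 or 3 or fragment libraries 1 or 2). With all libraries the shares were 12.5% and 10.7%, against 6.71% and 3.85% of all genes. Ctsk, a collagen-degrading cathepsin, was at 1843, 1759.9 and 1810.1 FPKM after asbestos, 1436, 1389 and 1431 after fragments and 854, 806 and 758 in untreated cells (0.35, adjusted p = 0.00101), whereas Ids, iduronate sulfatase, was lower (6.32, 6.49 and 7.34 against 8.32, 8.48 and 8.62 FPKM, -0.30).

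Osteoclast-type genes were higher in 3 of 16 cases, Ctsk, Csf1r and the chloride transporter gene Clcn7 (0.24), and lower in 1, the proton pump subunit gene Atp6v0d2 (767, 795 and 816 against 909, 905 and 863 FPKM, -0.17). Acp5, tartrate-resistant acid phosphatase, was at 35.6, 37.2 and 33.2 FPKM against 28.01, 28.4 and 30.4 without overlap and missed the threshold (0.28, 95% interval 0.10 to 0.46, adjusted p = 0.0514).

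Alveolar macrophage markers were lower after asbestos in 15 of 39 entries and higher in 6, with a median of -0.12, and 10 to 14 were lower when 1 library was left out. In all 6 omissions 9 lower and 3 higher members kept their call, the higher ones being Tgm2, Ctsk and Csf2rb. Against untreated cells the list median was 0.27 after asbestos and 0.33 after fragments. Ear2, an eosinophil-associated ribonuclease of alveolar macrophages, was at 559, 559 and 593 FPKM after asbestos, 848, 852 and 761 after fragments and 756, 756 and 763 in untreated cells. Asbestos lowered it under every untreated library, and fragments did not differ from untreated cells past the threshold (0.11, adjusted p = 0.0958). The difference between particles was -0.52 (SE 0.050, limma adjusted p = 9.41e-05). Ear1, of the same family, was raised by both, from 5.76, 4.94 and 5.66 FPKM to 34.1, 31.0 and 37.4 by asbestos and 52.8, 54.5 and 62.5 by fragments (-0.71, adjusted p = 0.000698). Ear6 had the opposite sign (0.28) and lost its call without asbestos library 1 or fragment libraries 1 or 2 (adjusted p up to 0.0789). Ear10 (-0.59) lost its call without asbestos libraries 1 or 3 or fragment library 2 (adjusted p up to 0.0980). These ribonucleases are near-identical copies, and their reads can be split uncertainly. They are also eosinophil markers, and with Siglecf the 4 such genes tested summed to 705 to 745 FPKM after asbestos, 940 to 1016 after fragments and 780 to 789 in untreated cells. The defining eosinophil genes Epx and Prg2 were not among the genes tested, and the part of such cells in the result was not tested.

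Mrc1, the mannose receptor CD206, was at 182, 189 and 196 FPKM after asbestos, 233, 239.8 and 239 after fragments and 329.7, 329 and 329.5 in untreated cells. Both particles lowered it, and the 3 groups did not overlap (-0.32, SE 0.032, limma adjusted p = 0.000122). Chil3, the chitinase-like protein Ym1, was at 1715, 1666 and 1875 FPKM against 2239, 2199.5 and 2190.5 and 2705, 2707 and 2476 in untreated cells (-0.34, adjusted p = 0.00482), but was not called after quantile normalization. Irf4, a transcription factor of alternative activation, was also lower (0.888, 0.976 and 0.738 against 1.29, 1.24 and 1.13 FPKM, -0.25). Of 13 alternative activation genes 4 were lower and 1, transglutaminase Tgm2, higher. Tgm2, which crosslinks matrix proteins, was at 58.4, 54.4 and 53.3 FPKM against 39.0, 37.0 and 39.5 and 13.8, 14.4 and 14.3 in untreated cells (0.51, adjusted p = 4.55e-05).

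Of 24 scavenger and uptake receptors 3 were lower and 1 higher. Colec12, a scavenger receptor with a collagen-like stalk, was at 101, 94.4 and 98.5 FPKM against 79.8, 80.0 and 84.3 (0.27, adjusted p = 0.000621). The receptors best known for binding silica and other particles did not differ past the threshold: Marco by -0.12 (95% interval -0.23 to -0.01, adjusted p = 0.148) and Msr1 by 0.04 (-0.04 to 0.11, adjusted p = 0.570), and after quantile normalization Msr1 turned to -0.01. Mertk (-0.14) and Axl (-0.13), which take up dying cells, lost their calls without asbestos library 3 or fragment libraries 2 or 3, and Mertk also without asbestos library 1.

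Matrix genes were split, with 5 of 20 higher and 4 lower after asbestos. The number higher was 2 without asbestos library 2 and 3 without asbestos libraries 1 or 3 or fragment library 2. Mmp8, a collagenase best known from neutrophils, was at 1.74, 1.17 and 1.77 FPKM after asbestos, 3.95, 3.95 and 4.12 after fragments and 1.34, 1.98 and 2.61 in untreated cells. All fragment libraries lay above all others, and asbestos against untreated cells did not pass the threshold (-0.20, adjusted p = 0.224). The difference of -0.98 (SE 0.13, limma adjusted p = 0.000700) was the largest of the lower genes. Of 17 neutrophil markers only Mmp8, Cxcr2 and S100a8 were among the genes tested, and the 3 summed to 70.1 to 72.6 FPKM after asbestos, 72.8 to 76.0 after fragments and 30.8 to 35.1 in untreated cells, while the defining genes Mpo, Elane and Ly6g were not among the genes tested. The part of other cells in the result was not tested. Spp1, osteopontin, was at 2293, 2352 and 2498 FPKM after asbestos, 2904, 2846 and 2713 after fragments and 702, 665 and 631 in untreated cells (-0.25, adjusted p = 0.00684), without a call after quantile normalization. The TGF-beta-induced matrix gene Tgfbi was higher after asbestos (5.52, 6.35 and 5.22 against 4.02, 4.04 and 4.16 FPKM, 0.40). The elastase gene Mmp12 (-0.45) lost its call without asbestos libraries 1 or 2 or fragment libraries 1 or 2 (adjusted p up to 0.108).

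Among 22 growth factor and TGF-beta family genes, 4 were higher and 2 lower. The lower count was 0 without fragment library 2, 1 without asbestos library 2 and 3 without fragment library 3. After Inhba, the largest was Skil, a repressor of SMAD signalling, at 3.23, 3.42 and 3.33 FPKM against 2.08, 2.32 and 2.18 and 0.833, 0.888 and 1.08 in untreated cells (0.44, adjusted p = 0.000305). Tgfb1 was not called (59.0, 52.0 and 51.7 against 51.4, 47.1 and 47.6 FPKM, 0.15, adjusted p = 0.103). Igf1 (-0.14) lost its call without asbestos library 2 or fragment library 2 (adjusted p up to 0.0610). Of 36 adhesion and motility entries 5 were higher (3 without asbestos libraries 2 or 3 or fragment library 2) and 4 lower, with the fibronectin receptor chain Itga5 higher (31.0, 27.1 and 27.99 against 24.1, 22.8 and 24.2 FPKM, 0.26) and the VCAM1 receptor chain Itga4 lower (4.07, 4.34 and 4.48 against 5.51, 6.52 and 5.82, -0.39).

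Several of the largest lower genes were lowered by both particles and more by asbestos. Cytip, a regulator of integrin adhesion, was at 24.3, 26.9 and 29.3 FPKM after asbestos, 40.3, 42.7 and 42.7 after fragments and 59.2, 58.6 and 57.8 in untreated cells (-0.63, SE 0.057, limma adjusted p = 6.05e-05). Gpr34, a lysophosphatidylserine receptor, was at 2.63, 2.46 and 3.12, 5.10, 5.63 and 5.33 and 6.17, 7.18 and 7.54 in the same order (-0.77, adjusted p = 0.000143). It lies opposite to Cask. Rgs2, which shortens G-protein signals, was at 8.58, 10.2 and 9.93, 13.7, 14.01 and 14.4 and 21.3, 19.3 and 20.5 (-0.51), and Cyp4a12a, a fatty acid hydroxylase, at 31.5, 30.6 and 31.8, 45.4, 47.0 and 44.8 and 57.1, 55.7 and 62.4 (-0.53). In these 4 genes the 3 groups did not overlap, which for asbestos against fragments follows from how the genes were picked. The adaptor gene Grb2 was lowered by asbestos, to 32.0, 35.3 and 33.4 FPKM, whereas fragments (61.9, 60.8 and 63.3) did not differ from untreated cells past the threshold (-0.23, adjusted p = 0.324). The Grb2 difference was -0.87 (adjusted p = 0.00799), a call on the gene that was not met by a call on a transcript. Prl2c5, of the prolactin family, was at 1.24, 1.31 and 1.25 FPKM against 2.44, 2.19 and 2.37 (-0.56), and rose after fragments.

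Some of the largest differences lost their call when a library was left out. Gcom1, a locus that shares its strand with Myzap and Polr2m, was listed at 0 in all 3 fragment libraries and at 0.757, 1.07 and 1.58 FPKM after asbestos, and lost its call in each of the 6 omissions. Ube2g2, a ubiquitin-conjugating enzyme gene that shares its strand with Gm49325, kept its call (0.94) only without fragment library 3 (adjusted p up to 0.0980). Fen1, a flap endonuclease of DNA replication, was at 16.1, 31.1 and 15.4 FPKM against 10.8, 12.4 and 11.7, with asbestos library 2 far above the rest. Its call (0.72) ended without asbestos library 2 or any fragment library (adjusted p up to 0.109). Of the lower genes, the autophagy gene Uvrag (-0.69) lost its call in all 6 omissions, the mitochondrial exchanger gene Slc8b1 (-0.56) in all but that of fragment library 2, the coronin gene Coro6 (-0.55) without asbestos libraries 1 or 3 or fragment libraries 2 or 3, and AI987944 (-0.69) without asbestos library 1.

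Transcripts of the mitochondrial genome were lower after asbestos in 12 of 13 cases and higher in 0, with a median of -0.33. All 13 were below 0, and 9 to 12 were called when 1 library was left out. After quantile normalization 5 were called and the median was -0.14. mt-Nd4, a subunit of respiratory complex I, was at 1114, 1166 and 1283 FPKM after asbestos, 1626, 1580.2 and 1453 after fragments and 1514, 1489.9 and 1579 in untreated cells (-0.39, adjusted p = 0.00106). Fragments against untreated cells did not pass the threshold (0.02, adjusted p = 0.774). The share of summed FPKM on mitochondrial genes was 6.44 ± 0.419% after asbestos, 7.91 ± 0.395% after fragments and 8.65 ± 0.181% in untreated cells (SD, n = 3). The difference of -1.47 percentage points gave p = 0.1 in an exact permutation test (2-sided), which is as low as such groups can reach. Oligo(dT) capture can move these transcripts, and its part in the difference was not tested. Nuclear genes of the respiratory chain were higher in 3 of 73 cases and lower in 0 (median 0.02). The higher share, 4.11%, was under the 6.71% of all genes. With any library but fragment library 1 left out, 1 was higher. The stable gene was Cyc1, cytochrome c1 (62.7, 58.4 and 58.4 against 49.0, 45.9 and 48.0 FPKM, 0.32, adjusted p = 0.00263). Mitochondrial ribosomal proteins were higher in 8 of 74 cases (10.8%) and lower in 1 (1.35%, median 0.07), and higher in 5 without asbestos library 2 or fragment library 3. Stable members were Mrpl52 (0.33), Mrpl38 (0.32) and Mrpl43 (0.24).

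Of 80 cytosolic ribosomal protein genes 4 were lower (5%, against 3.85% of all genes) and 0 higher (median -0.08). The lower count was 1 without asbestos library 2, fragment library 1 or fragment library 2, 2 without asbestos libraries 1 or 3 and 8 without fragment library 3. Rps25 was at 61.1, 61.5 and 63.4 FPKM after asbestos, 96.0, 94.2 and 88.7 after fragments and 74.1, 67.2 and 67.8 in untreated cells (-0.58, adjusted p = 0.00939), and was raised by fragments against untreated cells (0.41, adjusted p = 0.0154). It lies opposite to Ccdc84 and Trappc4. DNA replication genes were higher in 5 of 50 cases with all libraries (10%, against 6.71% of all genes). The count was 0 to 2 without any 1 of the 6 libraries and 1 after TMM rescaling. Mitosis genes were lower in 6 of 61 cases, but in 0 without asbestos library 1, asbestos library 3 or fragment library 2. This count was 2 without asbestos library 2, 1 without fragment library 3 and 5 without fragment library 1. It was 9 after TMM rescaling, 9 after quantile normalization, 2 after nuclear rescaling and 4 with summed transcripts. Examples were Ndc80 (-0.26) and Anln (-0.21). Both lost their calls without asbestos libraries 1 or 3 or fragment library 2 (Ndc80 also without fragment library 3).

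Untreated cells were used to place each difference relative to the response that both particles gave. Against untreated cells, 45.3% of genes were called after asbestos and 38.4% after fragments. These comparisons share the untreated libraries, so the classes that follow are a description. Both particles moved 3299 genes in the same direction (1432 up and 1867 down), and 524 of these (15.9%) differed between asbestos and fragments. The asbestos effect was the larger in 436 of the 524 and the fragment effect in 88. Where both effects were at least 1 in size, 62 of 161 genes differed, 55 with the larger effect after asbestos and 7 after fragments. Among the 258 genes raised by both and more by asbestos, the median effect was 0.72 after asbestos and 0.43 after fragments. Among the 178 lowered by both and more by asbestos it was -0.56 and -0.32. The order within each pair of medians follows from the definition of the class. Of the remaining called genes, 344 were called against untreated cells after asbestos but not after fragments (Tnf, Tlr2, Csf1r and Junb among them), 156 after fragments but not after asbestos (Mmp8 and Shmt2 among them), 13 after both with opposite signs and 84 after neither. A call in 1 group and not in the other does not show that the effects differ, which rests here on the test between the particles. The class sizes also moved with single libraries, with 274 genes of larger asbestos effect without asbestos library 1 and 272 without fragment library 2, and with 46, 44 and 58 genes of larger fragment effect without asbestos library 1, asbestos library 2 and fragment library 2.

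**Figure D5:**
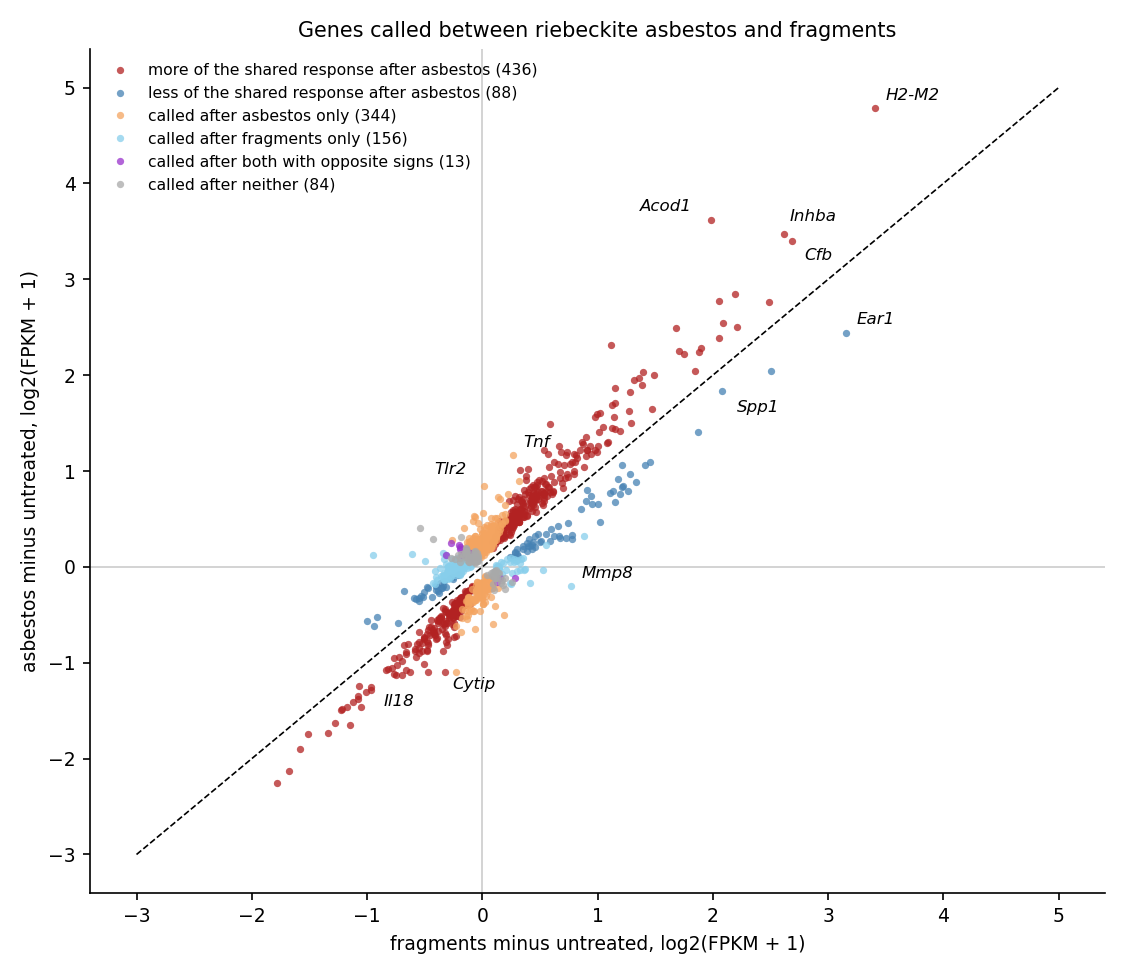
Effect of riebeckite fragments (x) and of riebeckite asbestos (y) against untreated cells (log2(FPKM + 1) scale) for the 1121 genes that differed between them, coloured by class; the dashed line marks equal effects. By definition the 436 genes with more of the shared response after asbestos lie beyond the line, and Acod1 (1.98 and 3.62) and H2-M2 (3.41 and 4.78) stand well above it.

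The 13 genes of opposite signs had small effects on either side of untreated cells. Besides Ccl3, Slc38a2 and Trp53inp1 they included Anpep, the surface aminopeptidase CD13, at 49.5, 49.1 and 47.7 FPKM after asbestos, 35.6, 36.1 and 34.7 after fragments and 45.7, 42.5 and 45.3 in untreated cells (0.45, adjusted p = 4.55e-05). The chromatin genes Dot1l (0.41), Brd2 (0.31) and Tada2b (0.38) were above untreated cells after asbestos and below after fragments. Dhrs3, a retinaldehyde reductase, was the reverse, at 35.7, 36.1 and 36.1 FPKM after asbestos, 46.8, 47.9 and 48.3 after fragments and 40.7, 39.2 and 37.0 in untreated cells (-0.40, adjusted p = 4.55e-05), as was the melanosome and granule transport gene Mlph (-0.28).

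Other genes responded strongly to both particles with close levels. Olr1, the oxidised LDL receptor, was at 287, 276 and 302 FPKM after asbestos, 285, 272 and 284 after fragments and 107, 110.0 and 110.2 in untreated cells, and the 95% interval of its difference ran from -0.04 to 0.12. Ccl17, a chemokine for T cells, was at 44.7, 44.7 and 44.6, 46.3, 43.5 and 41.4 and 16.1, 15.2 and 16.2 in the same order (-0.08 to 0.14). Slc16a1, a lactate transporter, was at 23.6, 23.7 and 24.5, 26.0, 23.2 and 25.6 and 8.61, 8.94 and 8.15 (-0.16 to 0.05). Lyst, Rgcc, C2cd2, Pkp2 and Lrrc27 were raised in the same way, and F10, coagulation factor X (26.2, 30.8 and 32.6, 30.2, 28.2 and 29.7 and 59.9, 65.6 and 66.5 FPKM), and Rara, a retinoic acid receptor (9.23, 9.17 and 10.1, 9.44, 9.71 and 9.52 and 22.02, 22.6 and 22.3), were lowered. The groups of asbestos and fragment libraries overlapped for all 10 of these genes, which were picked for the smallest upper bound of their absolute difference.

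At the level of transcripts, 282 of 22038 tested differed (1.28%), 163 higher (0.740%) and 119 lower (0.540%) after asbestos. They belonged to 273 genes, of which 251 were also called as genes, and 0 genes had transcripts called in opposite directions. Both transcripts of H2-M2 were higher, H2-M2-201 at a mean of 20.5 against 7.34 FPKM (1.38) and H2-M2-202 at 32.1 against 12.3 (1.31). Acod1 and Tnf were each represented by 1 transcript. Some calls on genes were not met by a call on a transcript. Grb2-203 differed by -1.02 with a limma adjusted p = 0.0755, and no transcript of Ube2g2 (lowest adjusted p = 0.113) or Slco4a1 (0.602) passed the threshold. Without asbestos library 1 the calls fell to 72 higher and 49 lower transcripts, without asbestos library 2 to 99 and 68, without fragment library 1 to 97 and 60, and without fragment library 2 to 80 and 60. Without asbestos library 3 there were 105 higher transcripts.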

How the data were processed

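RNA of 15 libraries in 5 groups of 3 was sequenced, and 9 of them (riebeckite asbestos, riebeckite fragments, untreated) are described. Per the labels' protocols, polyadenylated RNA was captured with oligo(dT) beads, and dUTP marking kept the strand in the library. Whether reads were counted by strand is not given in the sources used here, so overlapping genes may share them. The submitters' processing notes name cutadapt, HISAT2, StringTie and the GRCm38 build, without versions or settings. The authors deposited FPKM of genes and of transcripts, used here unchanged. Because FPKM divide by the library total, a shift in abundant transcripts moves all others, and a 0 may stand for an estimate that failed. Depth is unknown.

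The 10616 genes that reached 0.5 FPKM in 3 or more libraries (37 did not) were tested as log2(FPKM + 1), with a pseudocount of 1, by limma 3.58.1 in R 4.3.3. A single model of all 15 libraries by group was used, with a variance trend and Benjamini-Hochberg adjusted p under 0.05 as the call. Effects against untreated cells came from the same model, and transcripts were tested likewise. The members, 40 gene lists and 12 marker lists were chosen with earlier results of these data known. Named genes are the 15 largest higher and 15 largest lower calls without overlap between groups, with a mean of at least 1 FPKM and no clone symbol, up to 4 genes of each list by smallest p, 24 genes listed by name, up to 10 with opposite signs and up to 10 with like responses. Other list members were named after their values were seen. Alternatives comprised TMM, quantile and nuclear rescaling, a pseudocount of 0.1, other filters on low values, a replicate block, models of 6 or 9 libraries, no variance trend, a minimum log2 difference of 1, summed transcripts and omitted libraries. Tested on simulated data of this comparison (10616 genes, 200 changed, 5 draws), the model recovered 55.1, 82.4 and 95.0% of changes of 1.25, 1.5 and 2 times, and 4.55% of calls were false. The changed genes had a mean of at least 2 FPKM. Noise was normal and drawn apart for each gene and library, with the fitted spread of the gene. Effects of a library shared by many genes were not simulated, so the 4.55% is no error rate of the real calls. Plots were made with matplotlib 3.10.9 in Python 3.11.15.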

Additional observations from a re-analysis of the deposited data

How the results depend on the processing

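Of the 192 named genes, those that could be tested kept their direction without a filter on low values, with a mean of at least 5 FPKM, a pseudocount of 0.1, the nuclear rescaling, the replicate block, no variance trend and the model of the 6 riebeckite libraries. Calls were lost by 71 of them in that model, 36 with summed transcripts, 19 after quantile normalization, 12 each without a variance trend and after nuclear rescaling, 8 after TMM rescaling, 4 with the replicate block and 1 with the pseudocount of 0.1. The numbers of higher and lower genes (712 and 409) fell to 408 and 249 with summed transcripts, to 181 and 94 in the model of the 6 riebeckite libraries, and to 4 and 0 with a log2 difference of at least 1. Omission of 1 library gave 392 to 667 higher and 252 to 410 lower genes. Omission of the same replicate number from both riebeckite groups gave 260 and 180 (number 1), 227 and 166 (number 2), and 440 and 207 (number 3). Genes with more of the shared response after asbestos (436) numbered 276 with summed transcripts, 3 with a log2 difference of at least 1, 639 by signs of means alone, 272 to 414 without 1 library, and 196, 193 and 264 without replicate numbers 1, 2 and 3. Genes with less of it (88) numbered 50, 0, 158, 44 to 82, and 29, 21 and 35 in the same order, and 58 in the model of 9 libraries. Transcripts (163 higher, 119 lower) numbered 296 and 206 at a mean of at least 5 FPKM, 53 and 30 without a variance trend, 16 and 6 in the model of 6 libraries, 7 and 4 with a log2 difference of at least 1, and 72 to 122 and 49 to 86 without 1 library. The cause of these shifts was not tested, except that omissions and the 6-library model leave fewer libraries to estimate the spread.

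Directions turned in 14 of the named genes under some setting. Quantile normalization gave 0.045 for Itgb2, -0.0079 for Msr1, -0.035 for Pkp2, -0.0042 for Ccl17, -0.018 for Lyst and -0.018 for F10, and TMM rescaling -0.017 for Pkp2 and -0.0098 for F10. Summed transcripts gave -0.23 for Slc11a1, -0.15 for Slc25a37, -0.063 for Plk3, 0.0039 for Lrrc27 and 0.025 for Rara. Omission of 1 riebeckite library gave a range of -0.18 to 0.043 for Gclm, -0.043 to 0.05 for Pkp2, -0.060 to 0.047 for Rgcc, -0.0075 to 0.071 for Ccl17, -0.070 to 0.011 for C2cd2, -0.047 to 0.11 for F10 and -0.050 to 0.014 for Rara. Omission of a replicate number from both groups gave 0.077 for Gclm, -0.037 for Pkp2, -0.036 for F10 and 0.024 for Rara (number 2), 0.016 for Rgcc, -0.013 for Lyst and 0.0022 for Rara (number 1), and -0.0070 for Ccl17, 0.0046 for C2cd2 and -0.038 for F10 (number 3).

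Whether libraries of the same replicate number belong together was not tested. Correlations of their deviations from the group means were 0.031, 0.17 and 0.10, and each asbestos library correlated best with the fragment library of its own number. With the replicate block 738 genes were higher and 453 lower, and 1035 of the 1121 calls were shared. Depth is unknown, so no limit from counting could be set. Each group had 3 libraries, MPI cells were the 1 cell model, and each particle was given at 1 dose and time with unequal mass, so habit and mass cannot be told apart.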
